A study of Saccharomyces cerevisiae with 12 samples.

Results

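The 37 genes described here serve the uptake and use of nitrogen in budding yeast: the ammonium permeases, permeases for amino acids, allantoin products and urea, the enzymes that build glutamate and glutamine from ammonium, the enzymes that break down allantoin, proline, arginine and GABA (gamma-aminobutyrate), and the transcription factors that control them. They were listed by gene symbol, with earlier results of these data known, so their share of calls is a description and not an independent sample of genes. Each of the 37 was measured by 1 probe set, none of them marked as shared with a near-identical sequence, out of 5449 yeast genes named on the array. The genes were read in 12 cultures of Saccharomyces cerevisiae BY4741, a laboratory haploid of the a mating type in which HIS3, LEU2, MET17 and URA3 do not work on the chromosome. All cultures kept chromosomal SPT15, which encodes the TATA-binding protein, and carried the plasmid p416-Tefmut2 with a further copy: spt15-300 in the mutant, SPT15 in the wild type. The 4 groups were the mutant and the wild type in medium with 5% ethanol and 60 g/L glucose, called the ethanol medium, and the mutant and the wild type with 0% ethanol and 20 g/L glucose. Both media lacked uracil, and ethanol and glucose changed together, so their parts cannot be told apart. Which nitrogen source the medium held is not stated in the labels. The design names 3 biological replicates per group, but 1 ethanol-medium array, mutant replicate 2, is titled as an outlier and was left out, so that group rests on 2 arrays.

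Yeast uses preferred nitrogen sources such as glutamine and ammonium first. While these last, genes for poorer sources are held low, which is called nitrogen catabolite repression. The GATA factors Gln3 and Gat1 activate these genes when the repression is lifted, Ure2 holds Gln3 in the cytoplasm, and Dal80 and Gzf3 repress the same promoters. Ammonium enters through the Mep permeases and is built into glutamate by the NADP-dependent glutamate dehydrogenases Gdh1 and Gdh3, or by glutamine synthetase (Gln1) together with glutamate synthase (Glt1). Gdh2, the NAD-dependent enzyme, releases ammonium from glutamate.

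Values are log2 of the deposited intensity. The 11 arrays correlated with each other at 0.943 or more over the yeast genes, against 0.747 to 0.789 for the array left out. Genes of a cells read high (MFA1 11.95 to 13.00 and STE2 11.81 to 13.16), while of the genes of alpha cells STE3, MF(ALPHA)1 and MF(ALPHA)2 lay between 7.34 and 8.67 and SAG1 between 9.68 and 10.17. MET17, which BY4741 lacks, read 7.49 to 8.04, so a reading near 8 does not by itself show a transcript. LEU2 and HIS3, which also do not work in this strain, read higher, 7.88 to 10.26 and 11.23 to 11.88. MET17 is thus the lowest of these levels, and why the others read higher was not tested. In at least 1 group, 5 of the 37 genes read no higher than MET17's brightest array on every array: ATO2, DAL1, DAL4, DAL80 and GDH3. None of the 37 was below the background percentile of the Schizosaccharomyces pombe probe sets on every array of a group. A gene counts as called where limma gave it an adjusted p (Benjamini-Hochberg, over all 5449 genes) under 0.05. The number of arrays limits the precision.

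Between the strains, the nitrogen genes that moved mostly stood higher in the mutant. Without ethanol 8 of the 37 rose (background 8.26% of all genes) and 3 fell (background 8.07%), so 29.7% were called against 16.3% of all genes, and the arrays of the strains did not overlap for 19 (background 42.7%). In the ethanol medium 9 rose (background 5.73%) and 0 fell (background 5.98%), or 24.3% against 11.7% of all genes, and the arrays did not overlap for 20 (background 40.0%). The median change over the 37 was 0.08 in the ethanol medium and 0.00 without ethanol on the log2 scale, beside -0.01 and -0.03 over all genes. The changes were small: the widest was 1.5-fold, for DAL3 without ethanol. The wild-type readings of DAL3 there (8.10, 8.02 and 8.31) lay near MET17's brightest array (8.04). In total 17 of the 37 were called between the strains in at least 1 medium. MEP3, DAL3 and DUR3 were called in both (background 4.86% of all genes in either direction), which is 27.3% of the calls without ethanol and 33.3% of those in the ethanol medium. Over all genes 255 were called in both in the same direction, 28.7% and 40.0% of the calls.

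**Figure D1:**
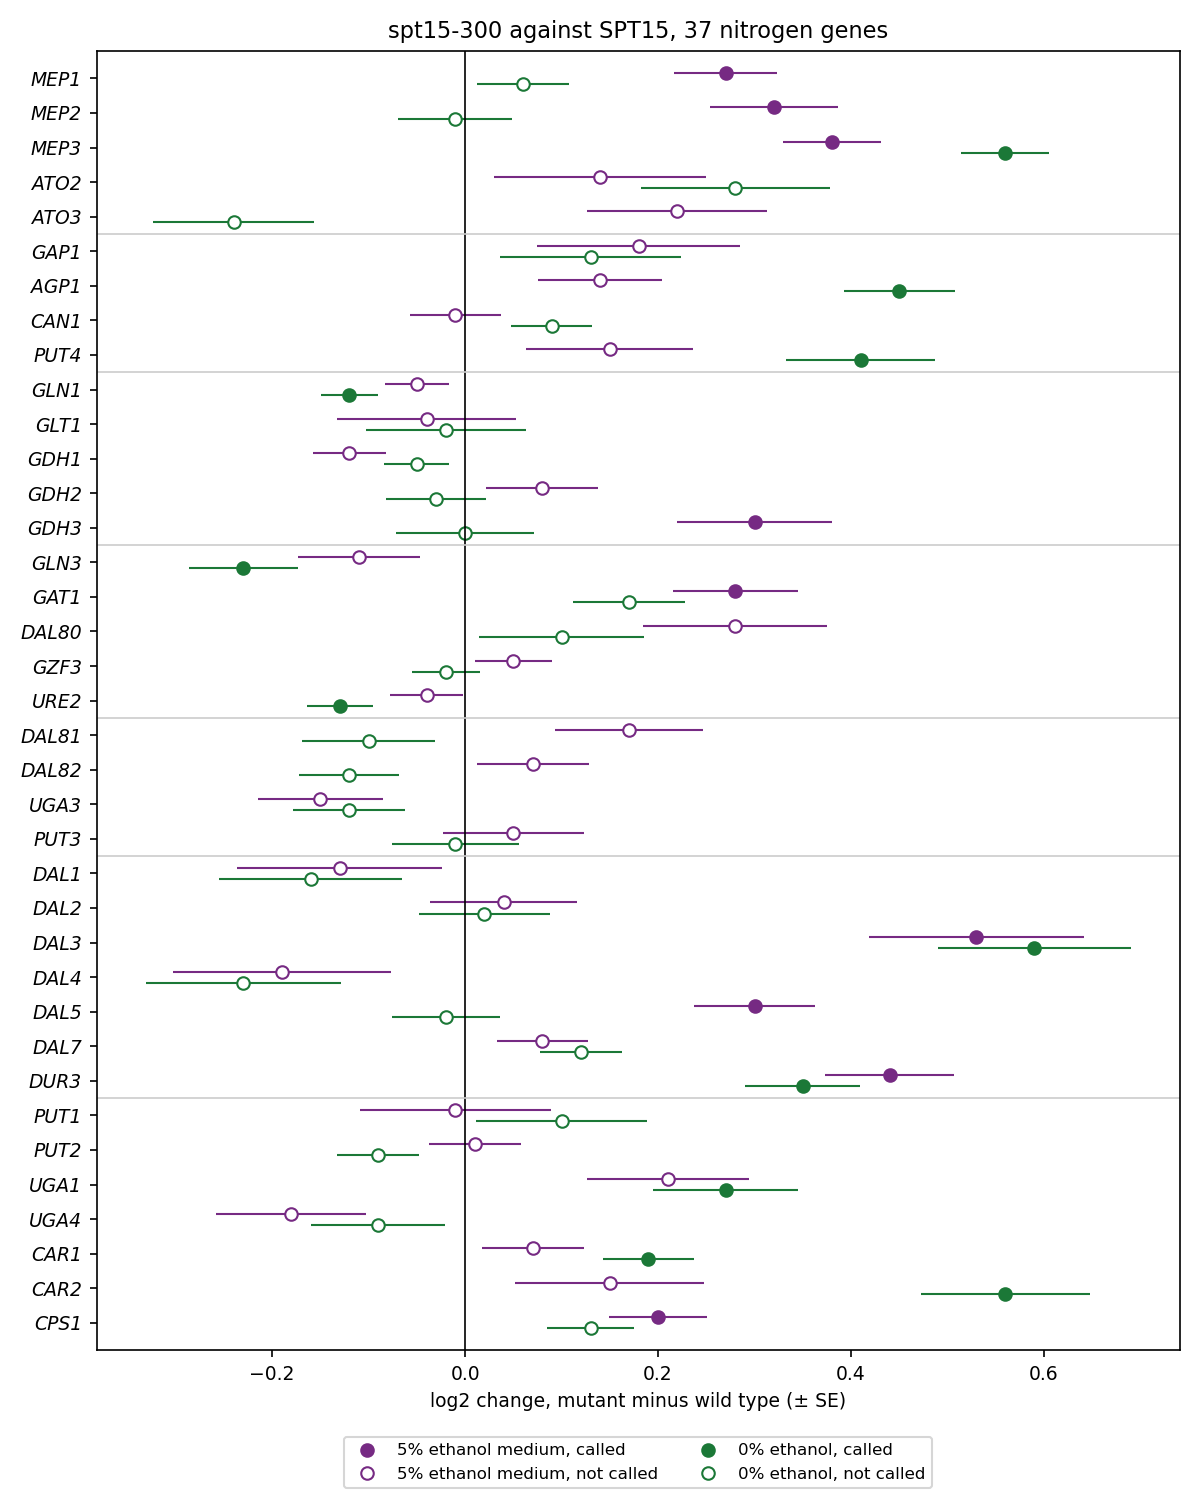
Difference in log2 intensity between the mutant and the wild type for each of the 37 genes, ordered by role (x axis: mutant minus wild type with its SE; filled points were called, open points were not). MEP3, DAL3 and DUR3 are filled and to the right of 0 in both media, and the filled points to the left of 0 are GLN1, GLN3 and URE2 without ethanol.

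The strain counts rested on few arrays. In the ethanol medium the count was 9, and it was 4 without replicate 1 of the mutant, 2 without replicate 3 of the mutant, 4 without replicate 2 of the wild type and 0 when only the 2 groups compared entered the fit, where 6 of all genes were called. Without ethanol it was 11, and 6 or 7 when 1 of the 6 arrays compared was left out, except for replicate 1 of the mutant (9). The 6 calls that held without any 1 array were MEP3, AGP1, PUT4, DAL3, DUR3 and CAR2. With array medians aligned, 7 rose and 1 fell without ethanol, so 87.5% of the calls were rises where the count above has 72.7%. Array weights over all 12 arrays gave 14 that rose and 11 that fell (56.0% higher), and with the replicate number as a block 9 rose and 6 fell (60.0% higher), so the split without ethanol was more even in those fits. Replicate 3 of the wild type without ethanol was the lowest of its group's arrays for 26 of the 37 genes, against 39.0% of all genes; without it 6 rose and 1 fell. For 8 control genes with probe sets at both ends, a sign of RNA quality, the 3' end read above the 5' end by a median of 0.24 to 0.266 in the mutant without ethanol and 0.310 to 0.359 in the wild type there. This median was 0.379 to 0.400 in the mutant and 0.361 to 0.435 in the wild type in the ethanol medium. Its part in the results below was not tested.

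Of the 3 ammonium permeases, MEP3 stood higher in the mutant in both media. In the ethanol medium it read 11.86 and 11.90 in the mutant, against 11.47, 11.49 and 11.54 in the wild type. Without ethanol MEP3 read 11.59, 11.64 and 11.65 in the mutant, against 11.14, 11.09 and 10.98 in the wild type. The strains did not overlap in either medium. MEP3 was 1.30-fold higher in the mutant in the ethanol medium (SE 0.051, adjusted p = 0.00438, but 0.120 where no other group entered the fit) and 1.47-fold without ethanol (SE 0.0456, adjusted p = 6.47e-05); the SE is on the log2 scale. It also rose with the medium, by 0.26 in the mutant (adjusted p = 0.00187) and 0.43 in the wild type (adjusted p = 3.17e-05).

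MEP1 and MEP2, the other two ammonium permeases, differed between the strains in the ethanol medium. MEP1 read 8.91 and 8.83 there in the mutant, against 8.59, 8.64 and 8.56 in the wild type. Without ethanol MEP1 read 9.45, 9.47 and 9.41 in the mutant, against 9.45, 9.41 and 9.29 in the wild type, and the strains overlapped. Each array of the ethanol medium thus lay below each array without ethanol. MEP1 fell with the ethanol medium by 0.57 in the mutant (adjusted p = 2.01e-05) and by 0.78 in the wild type (adjusted p = 8.38e-07), and was 0.27 higher in the mutant within that medium (adjusted p = 0.0185). For MEP2, which also acts as an ammonium sensor in filamentous growth, the ethanol medium gave 10.09 and 10.13 in the mutant and 9.72, 9.77 and 9.88 in the wild type. It gave 10.19, 10.18 and 10.08 in the mutant and 10.21, 10.21 and 10.04 in the wild type without ethanol. The wild type in the ethanol medium was the one group apart from the others: with the medium MEP2 differed by -0.04 in the mutant (adjusted p = 0.663) and fell by 0.36 in the wild type (adjusted p = 0.000531). The difference between these responses, 0.33 (SE 0.0887), was not called (adjusted p = 0.109). Both strain calls were lost when either mutant array of that medium was left out, replicate 1 or 3, with adjusted p = 0.0715 and 0.0628 for MEP1 and 0.0540 and 0.126 for MEP2. That of MEP2 was also lost without wild-type replicate 2 there (0.0590), and both were lost where no other group entered the fit (0.168 and 0.161).

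**Figure D2:**
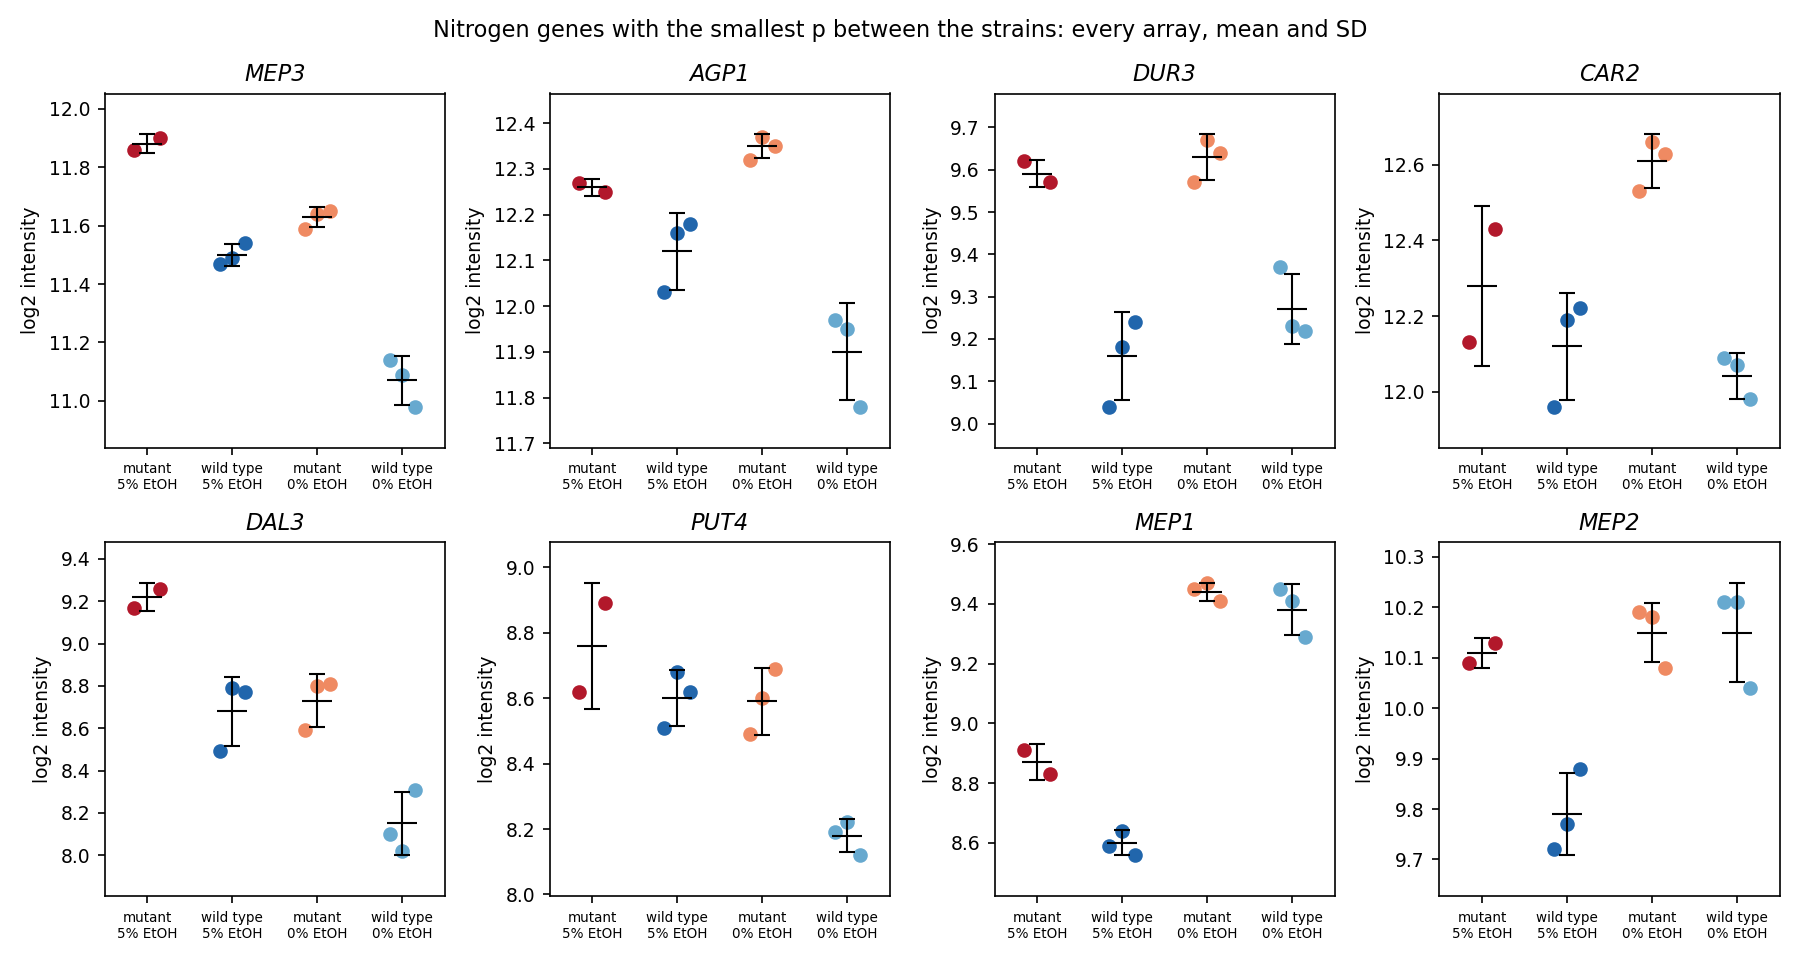
Log2 intensity on every array (points), with mean and SD (bars; n = 2 arrays for the mutant in the ethanol medium, 3 for the other groups), of the 8 nitrogen genes with the smallest p between the strains. MEP3, DUR3 and DAL3 have both mutant groups above the wild type of the same medium, and AGP1, CAR2 and PUT4 separate most without ethanol.

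ATO2 and ATO3, plasma membrane proteins regarded as ammonium exporters, moved in opposite directions with the medium. ATO3 read 10.64 and 10.49 in the mutant and 10.44, 10.24 and 10.36 in the wild type in the ethanol medium. Without ethanol ATO3 read 11.79, 11.53 and 11.48 in the mutant and 11.84, 11.80 and 11.87 in the wild type. It was 2.05-fold lower in the ethanol medium in the mutant (SE 0.0933, adjusted p = 1.55e-05) and 2.81-fold lower in the wild type (SE 0.0835, adjusted p = 4.24e-07), with no overlap. The difference of the responses, 0.45, was not called (adjusted p = 0.112). ATO2 read 8.17 and 8.49 in the mutant and 8.08, 8.25 and 8.25 in the wild type in the ethanol medium. It read 7.72, 7.94 and 7.77 in the mutant and 7.42, 7.50 and 7.66 in the wild type without ethanol, which is the level of MET17. Every array of the ethanol medium was thus above every array without ethanol, and ATO2 rose by 0.53 in the mutant (adjusted p = 0.00233) and by 0.66 in the wild type (adjusted p = 0.000294). Neither gene was called between the strains.

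Among the amino acid permeases, AGP1, a broad low-affinity permease, and PUT4, the proline permease, stood higher in the mutant without ethanol. With ethanol AGP1 read 12.27 and 12.25 in the mutant, against 12.03, 12.16 and 12.18 in the wild type (0.14, adjusted p = 0.180). Without ethanol AGP1 read 12.32, 12.37 and 12.35 in the mutant, against 11.97, 11.95 and 11.78 in the wild type, a 1.36-fold difference (SE 0.0576 on the log2 scale, adjusted p = 0.000895). Its arrays did not overlap between the strains in either medium. With the medium AGP1 differed by -0.09 in the mutant (adjusted p = 0.270) and rose by 0.22 in the wild type (adjusted p = 0.00711), and the difference of these responses (-0.31) was not called (adjusted p = 0.114). PUT4 read 8.62 and 8.89 in the mutant in the ethanol medium, where the wild type overlapped it at 8.51, 8.68 and 8.62. Without ethanol PUT4 read 8.49, 8.60 and 8.69 in the mutant, against 8.19, 8.22 and 8.12 in the wild type (1.33-fold, SE 0.0774, adjusted p = 0.00659). These wild-type readings lay close to MET17's brightest array (8.04), so changes from them are of readings. With the medium PUT4 differed by 0.16 in the mutant (adjusted p = 0.122) and rose by 0.42 in the wild type (adjusted p = 0.00104). GAP1, the general amino acid permease, and CAN1, the arginine permease, were not called between the strains (GAP1 0.18 with adjusted p = 0.254 in the ethanol medium and 0.13 with adjusted p = 0.382 without). Both fell with the ethanol medium: GAP1 by 0.36 in the mutant (adjusted p = 0.0142) and 0.41 in the wild type (adjusted p = 0.00403), CAN1 by 0.23 and 0.13 (adjusted p = 0.00203 and 0.0222). GAP1 lost its call in the mutant when mutant replicate 1 of the ethanol medium was left out (adjusted p = 0.0890). CAN1 lost its call in the wild type without any 1 of 4 wild-type arrays (0.0540 to 0.0869) and with array medians aligned (0.0517).

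Among the enzymes of ammonium assimilation, GLT1 and GDH3 differed most between the media, in opposite directions. GLT1, glutamate synthase, read 10.03 and 10.02 in the mutant and 10.24, 9.85 and 10.09 in the wild type in the ethanol medium. Without ethanol GLT1 read 11.61, 11.52 and 11.46 in the mutant and 11.57, 11.57 and 11.50 in the wild type. The media were far apart and the strains overlapped: GLT1 was 2.84-fold lower in the ethanol medium in the mutant (SE 0.0927, adjusted p = 1.36e-06) and 2.80-fold lower in the wild type (SE 0.0829, adjusted p = 4.13e-07). GDH3, an NADP-dependent glutamate dehydrogenase known to be expressed on non-fermentable carbon, read 9.25 and 9.36 in the mutant and 8.88, 9.10 and 9.05 in the wild type in the ethanol medium. Without ethanol GDH3 read 7.84, 8.05 and 7.89 in the mutant and 8.0, 7.87 and 7.92 in the wild type, the level of MET17. Its reading was 2.60-fold higher in the ethanol medium in the mutant (SE 0.0802, adjusted p = 9.36e-07) and 2.11-fold in the wild type (SE 0.0717, adjusted p = 1.51e-06). These readings without ethanol lie at about the level of MET17, with 8.05 in mutant replicate 2 just above its brightest array (8.04). The folds of GDH3 are therefore of readings and not the size of a change in transcript. This also holds for ATO2, DAL80 and DAL1, and for changes of DAL3 and PUT4 from the wild type without ethanol, which read close to that level. Within the ethanol medium GDH3 was also 0.30 higher in the mutant (adjusted p = 0.0431), a call that ended without any 1 of 8 of the arrays (adjusted p = 0.0588 to 0.237) with array medians aligned (0.0538) and where no other group entered the fit (0.215).

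GDH1, the main glutamate dehydrogenase of growth on glucose, was called in no comparison. It lay between 13.19 and 13.39 on all 11 arrays, and the media differed by -0.09 in the mutant (adjusted p = 0.0640) and -0.02 in the wild type (adjusted p = 0.602). GLN1, glutamine synthetase, lay between 13.15 and 13.47. It rose with the ethanol medium by 0.22 in the mutant (adjusted p = 0.000343) and by 0.16 in the wild type (adjusted p = 0.00117). Without ethanol GLN1 read 13.19, 13.17 and 13.15 in the mutant, against 13.30, 13.28 and 13.28 in the wild type, and fell by 0.12 (adjusted p = 0.0246). This strain call ended without any 1 of the 6 arrays compared (adjusted p = 0.0534 to 0.0955) and with array medians aligned (0.0773). Over the 11 arrays GLN1 and GDH1 read brighter than 97.0% and 97.1% of all genes. GDH2 rose with the ethanol medium by 0.32 in the mutant (adjusted p = 0.00109) and 0.21 in the wild type (adjusted p = 0.00576), and was not called between the strains.

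**Figure D3:**
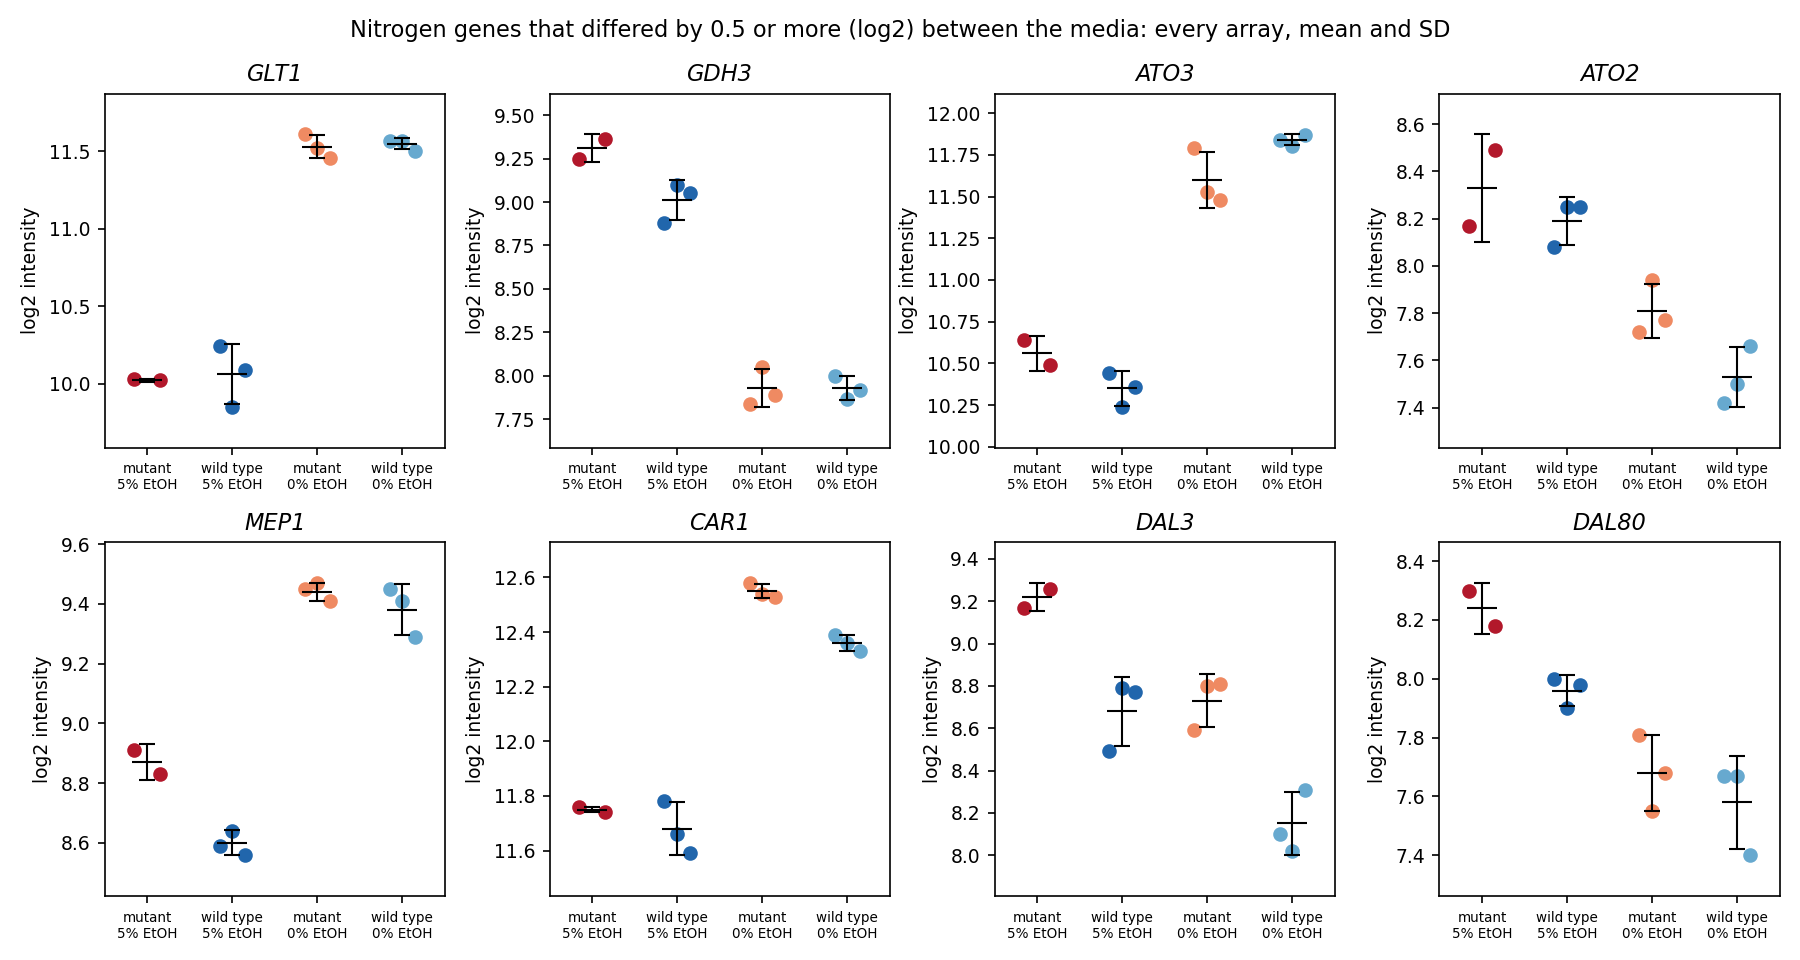
Log2 intensity on every array (points), with mean and SD (bars; n = 2 arrays for the mutant in the ethanol medium, 3 for the other groups), of the 8 nitrogen genes that differed by 0.5 or more between the media. GLT1, ATO3, MEP1 and CAR1 are lower and GDH3, ATO2 and DAL80 higher in both strains in the ethanol medium, and DAL3 differs by strain as well as by medium.

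Between the media as a whole, the nitrogen genes changed about as often as other genes. In the mutant 23 of the 37 were called, 15 higher (background 33.8%) and 8 lower (background 28.7%), which is 62.2% beside 62.5% of all genes, and the media did not overlap for 27 (background 76.6%). In the wild type 24 were called, 15 higher (background 31.7%) and 9 lower (background 29.0%), or 64.9% beside 60.8%, and the media did not overlap for 25 (background 66.9%). The same 18 genes were called in both strains (background 48.8%), all in the same direction, which is 78.3% of the calls in the mutant and 75.0% of those in the wild type. Over all genes 2638 were called in both in the same direction, 77.5% and 79.6% of the calls. With the quantile normalization repeated, 12 rose and 12 fell in the wild type, a share of 50.0% higher against 62.5%. Without the lowest 25% of genes, 7 rose and 7 fell in the mutant (50.0% higher against 65.2%), and 6 rose and 8 fell in the wild type (42.9% higher), so a majority of rises between the media is not kept in that setting. GDH1, DAL4 and the activators DAL81, UGA3 and PUT3 were called neither between the media nor between the strains.

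Of the 4 GATA factors and URE2, 1 rose and 0 fell in the mutant in the ethanol medium and 0 rose and 2 fell without ethanol, each by 0.28 or less in size. These are 20.0% and 40.0% called, beside 11.7% and 16.3% of all genes. Between the media 3 of the 5 were called in each strain, DAL80 with the widest change. That is 60.0%, about the share of all genes (62.5% in the mutant and 60.8% in the wild type). GAT1, an activator, read 10.77 and 10.89 in the mutant and 10.53, 10.60 and 10.53 in the wild type in the ethanol medium, 0.28 higher in the mutant (SE 0.0646, adjusted p = 0.0287). The call was lost without mutant replicate 3 (adjusted p = 0.186), wild-type replicate 1 or 2 (0.0634 and 0.0563) or wild-type replicate 2 of the other medium (0.0511), and where no other group entered the fit (0.171). GAT1 also rose with the ethanol medium in the mutant, by 0.24 (adjusted p = 0.00910, and 0.0891 without mutant replicate 3), and differed by 0.14 in the wild type (0.0591). GLN3, the other activator, read 9.21, 9.26 and 9.17 in the mutant without ethanol, against 9.52, 9.44 and 9.37 in the wild type, and fell by 0.23 (SE 0.0563, adjusted p = 0.0237). URE2 read 11.24, 11.22 and 11.17 in the mutant there, against 11.35, 11.33 and 11.32 in the wild type, and fell by 0.13 (adjusted p = 0.0344). None of these groups overlapped. GLN3 lost its call without any 1 of 4 of these arrays (adjusted p = 0.0628 to 0.0974), and URE2 without any 1 of the 6 (0.0525 to 0.129) and with array medians aligned (0.0773).

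DAL80, a repressor that is itself under nitrogen catabolite repression, read 8.30 and 8.18 in the mutant and 8.0, 7.90 and 7.98 in the wild type in the ethanol medium. Without ethanol DAL80 read 7.81, 7.55 and 7.68 in the mutant and 7.67, 7.67 and 7.40 in the wild type, no higher than MET17's brightest array. The wild type in the ethanol medium also read no higher than that array, so both wild-type groups lie at this level. The reading of DAL80 rose with the ethanol medium by 0.56 in the mutant (adjusted p = 0.000740) and 0.38 in the wild type (adjusted p = 0.00343). In the wild type the call was lost with the quantile normalization repeated (0.498). GZF3 differed by -0.04 in the mutant (adjusted p = 0.407) and fell by 0.11 in the wild type (adjusted p = 0.0239). URE2 fell by 0.10 in the mutant (adjusted p = 0.0409) and 0.19 in the wild type (adjusted p = 0.00101). URE2 lost its call in the mutant with array medians aligned (0.0505), with the replicate block (0.0581) and without any 1 of 7 arrays (0.0511 to 0.123), and GZF3 lost that in the wild type with array medians aligned (0.0958) and without any 1 of 4 arrays (0.0607 to 0.0813). Of the 4 activators of single pathways, DAL81, DAL82, UGA3 and PUT3, 0 were called between the strains in limma, beside 11.7% of all genes in the ethanol medium and 16.3% without. At an unadjusted p under 0.05 it was 1 in each medium, beside 1703 and 1663 of all 5449 genes. DAL82 rose by 0.20 with the medium in the mutant (adjusted p = 0.0134, and 0.107 without mutant replicate 1 of the ethanol medium).

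In the allantoin and urea pathway, DAL3 and DUR3 rose in the mutant in both media. DAL3, ureidoglycolate lyase, read 9.17 and 9.26 in the mutant in the ethanol medium, against 8.49, 8.79 and 8.77 in the wild type. Without ethanol DAL3 read 8.59, 8.80 and 8.81 in the mutant, against 8.10, 8.02 and 8.31 in the wild type. The strains did not overlap, and the mutant without ethanol read about as high as the wild type in the ethanol medium. The wild type without ethanol lay near MET17's brightest array (8.04), so changes from it are of readings. DAL3 was 1.45-fold higher in the mutant in the ethanol medium (SE 0.111, adjusted p = 0.0214, lost at 0.0536 and 0.133 without mutant replicate 1 or 3 and at 0.157 where no other group entered the fit) and 1.5-fold without ethanol (SE 0.0997, adjusted p = 0.00406). It also rose with the ethanol medium, by 0.48 in the mutant (adjusted p = 0.00410) and 0.54 in the wild type (adjusted p = 0.00115).

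DUR3, the urea transporter, read 9.62 and 9.57 in the mutant in the ethanol medium, against 9.04, 9.18 and 9.24 in the wild type. Without ethanol DUR3 read 9.57, 9.67 and 9.64 in the mutant, against 9.37, 9.23 and 9.22 in the wild type. The media overlapped in both strains, while the strains stood apart in both media: 1.36-fold in the ethanol medium (SE 0.0669, adjusted p = 0.00654, and 0.134 where no other group entered the fit) and 1.28-fold without ethanol (SE 0.0598, adjusted p = 0.00406). DAL5, the allantoate permease, read 9.38 and 9.53 in the mutant in the ethanol medium, against 9.15, 9.09 and 9.24 in the wild type, and rose by 0.30 (adjusted p = 0.0217, lost at 0.151 without mutant replicate 3, 0.0648 without wild-type replicate 2 and 0.192 where no other group entered the fit). Without ethanol DAL5 lay between 9.10 and 9.23 in the mutant and between 9.14 and 9.23 in the wild type. It rose by 0.29 with the medium in the mutant (adjusted p = 0.00285) and differed by -0.03 in the wild type (adjusted p = 0.682). The difference of these responses, 0.32, had the smallest adjusted p of the 37 genes in the interaction, 0.106.

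DAL1, DAL4, DAL2, DAL7 and DAL3 lie next to each other in this order in the R64 assembly, with DCG1, a gene of unknown function, between DAL2 and DAL7. The neighbours did not move as a block. DAL3, at the end of the row, was the only one of the 6 called between the strains; DAL1, DAL4, DAL2, DCG1 and DAL7 differed by -0.19 to 0.08 in the ethanol medium and by -0.23 to 0.12 without ethanol. With the ethanol medium DAL1 (allantoinase), DAL2 (allantoicase), DAL7 (a malate synthase) and DAL3 rose in both strains. DAL7 rose by 0.39 in the mutant (adjusted p = 0.000104) and 0.43 in the wild type (adjusted p = 2.06e-05). DAL4, the allantoin permease, differed by 0.00 in the mutant (adjusted p = 0.981) and -0.04 in the wild type (adjusted p = 0.724). The rises of DAL1 and DAL2 were 0.34 and 0.25 in the mutant (adjusted p = 0.0188 and 0.0179) and 0.31 and 0.23 in the wild type (0.0163 and 0.0145). Without ethanol DAL1 read no higher than MET17's brightest array in either strain, so its rises are of readings. DAL1 and DAL2 lost their calls in the mutant without mutant replicate 1 of the ethanol medium (0.181 and 0.163) or replicate 2 of the other (0.0501 and 0.0586), and DAL1 also without replicate 3 there (0.0502). In the wild type they were lost without wild-type replicate 3 of the medium with no ethanol (0.0603 and 0.0554), and DAL1 also without replicate 1 of the ethanol medium (0.0520). DAL1 was lost in both strains with the quantile normalization repeated (0.446 and 0.790).

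**Figure D4:**
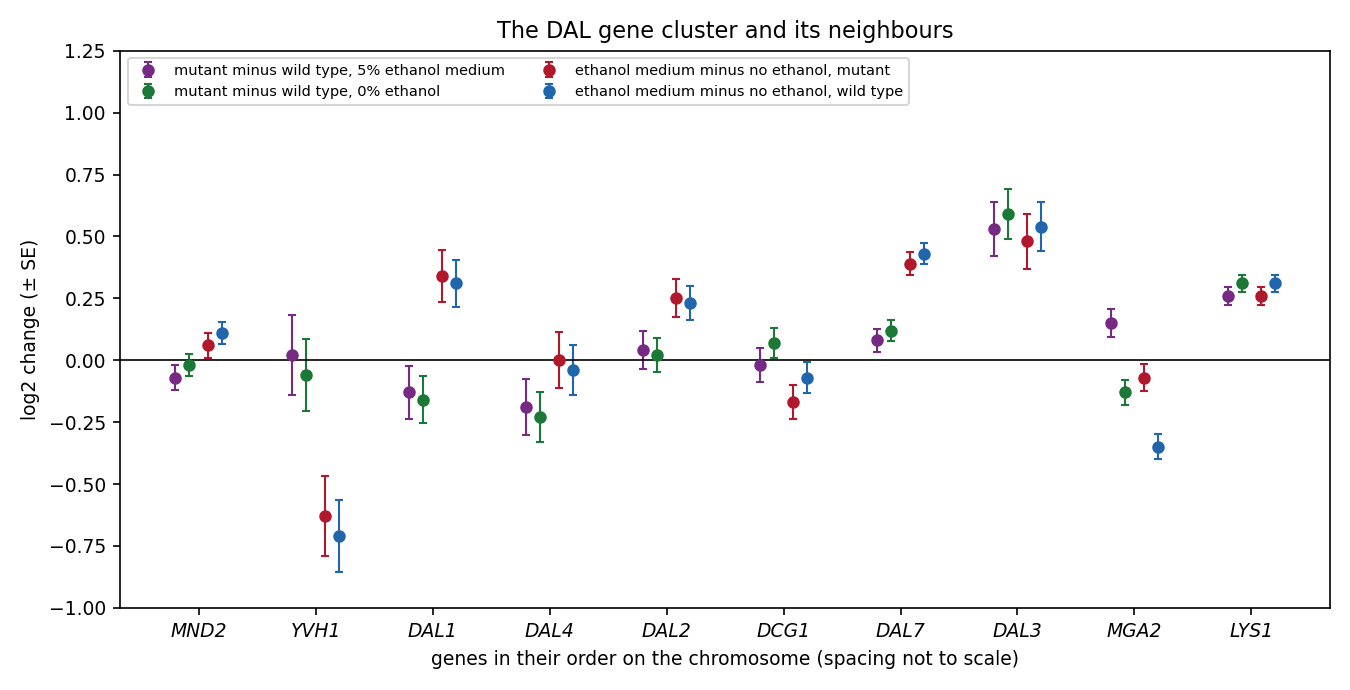
Log2 changes with their SE in the 4 comparisons between groups, for the genes from MND2 to LYS1 in chromosome order (x axis; spacing not to scale). DAL3 lies near 0.5 in all 4 comparisons, DAL1, DAL2 and DAL7 lie at 0.23 to 0.43 in the comparisons of media and at -0.16 to 0.12 in those of strains, and LYS1, a lysine synthesis gene outside the cluster, also lies above 0 in all 4.

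Among the genes that break down arginine, proline and GABA, CAR2 differed most between the strains. CAR2, ornithine transaminase, read 12.13 and 12.43 in the mutant and 11.96, 12.19 and 12.22 in the wild type in the ethanol medium, and the strains overlapped. Without ethanol CAR2 read 12.53, 12.66 and 12.63 in the mutant, against 12.09, 12.07 and 11.98 in the wild type, a 1.48-fold difference (SE 0.0877, adjusted p = 0.00256). It fell by 0.33 with the medium in the mutant (adjusted p = 0.0153, and 0.159 without mutant replicate 1 of the ethanol medium) and differed by 0.08 in the wild type (adjusted p = 0.454). The difference of these responses, -0.41, was not called (adjusted p = 0.153). CAR1, arginase, read 11.76 and 11.74 in the mutant and 11.78, 11.66 and 11.59 in the wild type in the ethanol medium. Without ethanol CAR1 read 12.58, 12.54 and 12.53 in the mutant and 12.39, 12.36 and 12.33 in the wild type. Each array of the ethanol medium lay below each array without ethanol, by 1.74-fold on average in the mutant (adjusted p = 2.11e-06) and 1.60-fold in the wild type (adjusted p = 2.00e-06). CAR1 was also 0.19 higher in the mutant without ethanol (adjusted p = 0.0235), a call that ended without any 1 of the 6 arrays (0.0570 to 0.0726).

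UGA1, GABA transaminase, read 11.58, 11.69 and 11.69 in the mutant without ethanol, against 11.35, 11.42 and 11.39 in the wild type, and rose by 0.27 (adjusted p = 0.0383). The call ended with array medians aligned (0.0538) and without any 1 of 5 arrays (0.0839 to 0.122). CPS1, a vacuolar carboxypeptidase, read 12.45 and 12.51 in the mutant in the ethanol medium, against 12.23, 12.32 and 12.28 in the wild type, and rose by 0.20 (adjusted p = 0.0351); it was lost without any 1 of 9 arrays (0.0507 to 0.202) and where no other group entered the fit (0.215). With the ethanol medium CPS1 rose by 0.16 in the mutant (adjusted p = 0.0193), which was lost without mutant replicate 1 of the medium with no ethanol (0.0527) or replicate 3 of the ethanol medium (0.125). PUT2, which completes the oxidation of proline to glutamate, rose with the ethanol medium by 0.24 in the mutant (adjusted p = 0.00186) and 0.14 in the wild type (adjusted p = 0.0175). PUT1, proline oxidase, differed by 0.24 in the mutant (adjusted p = 0.0556) and rose by 0.35 in the wild type (adjusted p = 0.00649, and 0.0731 with the quantile normalization repeated). UGA4, the GABA permease, differed by 0.11 in the mutant (adjusted p = 0.230) and rose by 0.19 in the wild type (adjusted p = 0.0338). In the wild type the PUT2 call ended without any 1 of 3 arrays (0.0600 to 0.0652), and that of UGA4 without any 1 of 4 (0.0818 to 0.101) and with the quantile normalization repeated (0.773).

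**Figure D5:**
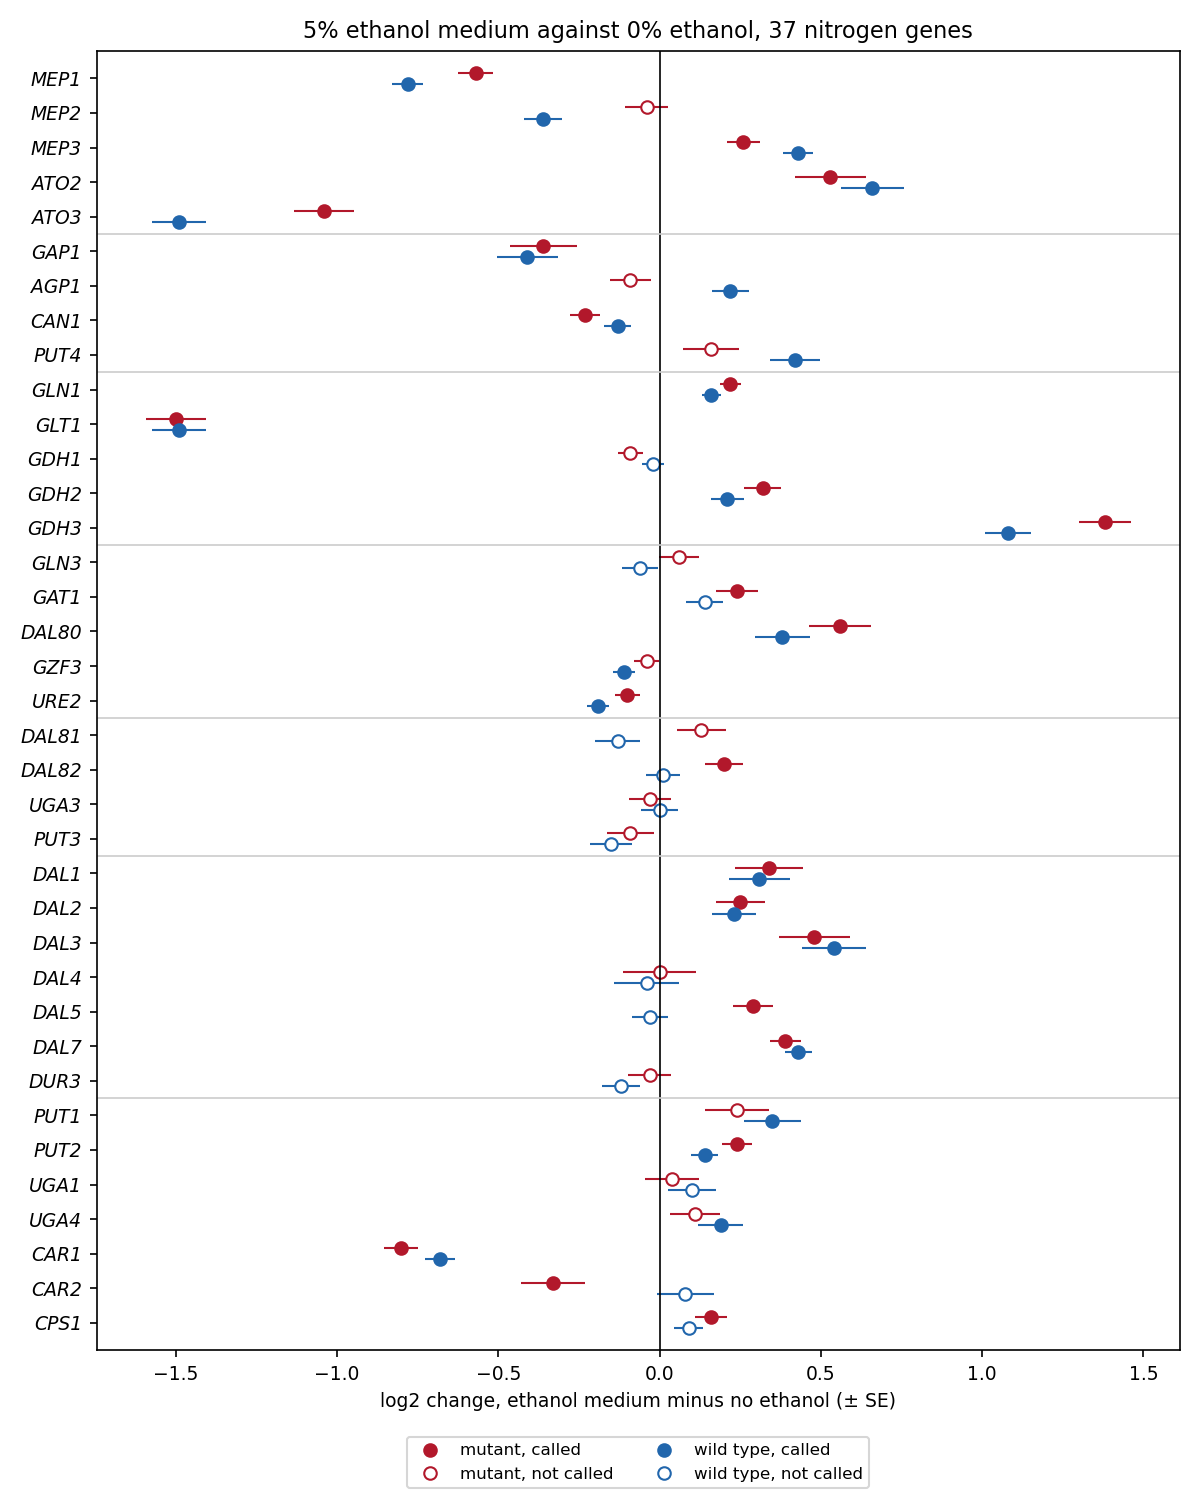
Difference in log2 intensity between the ethanol medium and the medium without ethanol for each of the 37 genes, ordered by role (x axis: ethanol medium minus no ethanol with its SE; filled points were called, open points were not). GLT1 lies at -1.5 in the mutant and -1.49 in the wild type, GDH3 lies at 1.38 in the mutant and 1.08 in the wild type, and the 18 genes filled in both strains lie on the same side of 0 in both.

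Whether the mutant answered the ethanol medium differently from the wild type was tested as the strain by medium interaction. In limma 0 of the 37 genes were called (background 1.21% of all genes, 0.385% higher and 0.826% lower). Of the 37, 11 had an unadjusted p under 0.05, beside 1085 of all 5449 genes. In the fit of all 12 arrays with array weights 5 were called (MEP2, ATO3, AGP1, DAL81 and CAR2). The share of all genes called in that fit is not given here, so this count is not read as a result about the 37. ATO3 was called without mutant replicate 1 of the medium with no ethanol (adjusted p = 0.0376), and MEP2 and DAL5 without wild-type replicate 3 of the ethanol medium (0.0364 and 0.0354). Calls made in 1 strain but not in the other, such as MEP2, AGP1, DAL5 and CAR2, are therefore not shown to differ between the strains.

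Other genes of nitrogen metabolism were taken from 4 lists. Of 25 measured genes of other nitrogen sources and catabolite repressed genes, 3 rose in the mutant in the ethanol medium and 0 fell, and 5 rose and 2 fell without ethanol, or 12% and 28.0% called beside 11.7% and 16.3% of all genes. They were led by ARO9 and ARO10, an aminotransferase and a decarboxylase of aromatic amino acid breakdown, which in the ethanol medium rose in the mutant by 0.22 and 0.35 (adjusted p = 0.0256 and 0.00567), and by 0.66 and 0.82 without ethanol (adjusted p = 1.75e-05 and 6.99e-06). PRB1, a vacuolar protease, rose by 0.23 (adjusted p = 0.0416) and 0.33 (adjusted p = 0.00368). With the ethanol medium 16 of the 25 rose and 1 fell in the mutant, and 17 rose and 2 fell in the wild type, or 68.0% and 76.0% called beside 62.5% and 60.8% of all genes. ARO10 rose with the ethanol medium 1.85-fold in the mutant and 2.55-fold in the wild type. The oligopeptide transporter OPT2 rose 2.24-fold and 1.72-fold, and the dipeptide transporter PTR2 2.06-fold and 1.64-fold. The difference of these responses was not called for OPT2 or PTR2 (adjusted p = 0.0901 and 0.121). Between the strains both were lower in the mutant without ethanol (-0.33 and -0.37, adjusted p = 0.00705 and 0.00406).

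Of 24 genes of TORC1, its phosphatases and permease control, 1 rose and 0 fell in the mutant in the ethanol medium, and 1 rose and 4 fell without ethanol (4.17% and 20.8% called, beside the same 11.7% and 16.3%). TIP41, a regulator of type 2A phosphatases, rose in both (by 0.18 and 0.16, adjusted p = 0.0279 and 0.0172), and PPH22, a phosphatase catalytic subunit, fell by 0.25 without ethanol (adjusted p = 0.00103). With the ethanol medium 13 rose and 2 fell in the mutant and 7 rose and 2 fell in the wild type, or 62.5% and 37.5% called beside 62.5% and 60.8% of all genes. NPR2, a negative regulator of TORC1, had the smallest p of the list in both (0.46 and 0.48, adjusted p = 3.99e-06 and 8.86e-07). Of 16 genes of the retrograde pathway and 2-oxoglutarate supply, which makes the carbon skeleton of glutamate, 2 rose and 2 fell in the mutant in the ethanol medium and 3 rose and 3 fell without (25% and 37.5% called, beside 11.7% and 16.3% of all genes). The homocitrate synthase LYS20 rose in both (0.32 and 0.26, adjusted p = 0.00380 and 0.00141). With the ethanol medium 12 rose and 1 fell in the mutant and 11 rose and 1 fell in the wild type (81.2% and 75.0% called, beside 62.5% and 60.8% of all genes). Among those that rose was the citrate synthase CIT2 (1.98-fold and 1.75-fold). CIT3, another citrate synthase, averaged 8.48 in the mutant and 8.85 in the wild type in the ethanol medium. Without ethanol it averaged 7.22 in the mutant and 7.36 in the wild type, near the S. pombe percentile (7.24 on average) and below MET17, so no fold is given for it. Of 18 genes of arginine and proline metabolism outside the 37, 3 rose and 3 fell in the mutant in the ethanol medium and 3 rose and 4 fell without (33.3% and 38.9% called, beside 11.7% and 16.3% of all genes). With the ethanol medium 5 rose and 9 fell in the mutant and 3 rose and 9 fell in the wild type (77.8% and 66.7% called, beside 62.5% and 60.8% of all genes). The arginine synthesis genes ARG7 (-0.74 and -0.69) and ARG4 (-0.62 and -0.43) fell in both.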

How the data were processed

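Total RNA of 12 cultures was hybridised to 12 Affymetrix arrays, 1 per culture. The deposited values are intensities per probe set, made by the authors with RMA per the submitters' processing notes; its settings and version are not stated there. They run from 6.16 to 22228.3, so log2 was taken here with no pseudocount. Probe sets were named with the platform annotation and RefSeq's genes for assembly R64 (5498 probe sets, 5449 genes, the brightest probe set of a gene kept). S. pombe probe sets (1746) gave each array's background, their 95th percentile (7.24 on average). limma 3.58.1 under R 4.3.3 (a mean per group, lmFit then eBayes, 11 arrays, 7 residual degrees of freedom) tested the strains within each medium, the media in each strain and the interaction, with Benjamini-Hochberg adjustment over all genes. On data simulated for the comparison without ethanol, 86% of 50 genes raised by 0.5 were called, and 68% of 50 raised by 0.25. In the ethanol medium these shares were 92% and 64%. The median size of the strain changes of the 37 was smaller, 0.12 without ethanol and 0.15 in the ethanol medium. The simulation drew independent normal noise and changed 200 genes, whereas 890 genes were called in the data without ethanol and 638 in the ethanol medium. Its shares therefore describe that setting and may differ for these data. By the rule for named genes, values per array belong to genes called with groups that do not overlap and a change of 0.5 or more, genes called with smaller changes are named with their change, and up to 3 genes of smallest p are named per further list and comparison. Values per array of other genes among the 37, and the wild-type, strain and interaction values of OPT2 and PTR2, were added after their values were seen. The 37 genes and the 4 further lists were chosen with earlier results of these data known. Same-numbered replicates deviated together in the comparisons that include the mutant in the ethanol medium (correlations 0.481 to 0.629). Elsewhere the correlations were -0.247 to 0.138. The mutant there has 2 arrays, which deviate from their mean by equal and opposite amounts, so its 2 pairs are not independent. The numbers were not taken as pairs in the main fit, and a fit with them as a block is given as an alternative.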

Additional observations from a re-analysis of the deposited data

Results flagged for a closer look

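In the array titled as an outlier, which no comparison used, DAL1 read 10.80, DAL2 11.78 and PUT1 11.05 on the log2 scale, above all 11 other arrays and above that array's own S. pombe percentile of 10.78. On that array 11 of the 37 genes read above all others, 22 below all others, and 27 at or under the S. pombe percentile. These counts were not made over all genes, so they do not set the nitrogen genes apart. The array differed as a whole: the median of all yeast genes was 9.89 there, against 10.46 to 10.52 on the 11 others. Its S. pombe percentile of 10.78 compares with 7.24 on average on those arrays.

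ARO9 and ARO10, of the list of other nitrogen source genes, were called in the interaction. In the ethanol medium ARO9 read 12.54 and 12.67 in the mutant, against 12.41, 12.41 and 12.34 in the wild type, and without ethanol 11.93, 11.92 and 11.92 in the mutant, against 11.20, 11.29 and 11.28 in the wild type. ARO10 read 12.53 and 12.72 in the mutant, against 12.30, 12.25 and 12.28 in the wild type in the ethanol medium, and 11.76, 11.73 and 11.74 in the mutant, against 10.93, 10.96 and 10.90 in the wild type without ethanol. The mutant's response to the medium was thus smaller than that of the wild type by 0.44 for ARO9 (interaction -0.44, adjusted p = 0.0167) and by 0.46 for ARO10 (interaction -0.46, adjusted p = 0.0172). In the medium with no ethanol, leaving out mutant replicate 2 or 3 or wild-type replicate 1 ended both calls (adjusted p = 0.0574, 0.0501 and 0.0514 for ARO9, and 0.0574, 0.0502 and 0.0587 for ARO10), as did the fit of all 12 arrays (0.685 each).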

How the results depend on the processing

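Counts of the 37 genes called are given for mutant against wild type in the ethanol medium (9) and without ethanol (11), for the ethanol medium against no ethanol in the mutant (23) and in the wild type (24), and for the interaction (0). Leaving out 1 array gave 2 to 9, 6 to 12, 18 to 24, 19 to 25 and 0 to 2; a lone mutant array in the ethanol medium was then assumed to vary like the other groups. With all 12 arrays the counts were 0, 0, 5, 4 and 0, and with array weights 25 were called between the strains without ethanol and 5 in the interaction. Without the lowest 25% of genes, which left 20 of the 37 tested, they were 4, 7, 14 and 14. With only the groups compared, 0 were called between the strains in the ethanol medium. The fit with the replicate number as a block gave 11, 15, 25, 25 and 0, and it ended the call of URE2 between the media in the mutant (adjusted p = 0.0581). Repeated quantile normalization, aligned medians and a variance trend kept each count within 1.5 times. So did the mean over probe sets, but each of the 37 has 1 probe set, so this setting left their readings unchanged and is no check of them. Of 67 single calls, 12 changed sign, each with all 12 arrays: MEP3 (-0.08), GDH3 (-0.08), GAT1 (-0.25), DAL3 (-0.24) and CPS1 (-0.11) between the strains in the ethanol medium, and MEP3 (-0.20), GLN1 (-0.15), GAT1 (-0.29), DAL3 (-0.28), DAL5 (0.00), PUT2 (-0.01) and CPS1 (-0.15) between the media in the mutant. The cause was not tested.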
